A study of Mus musculus with 12 samples.

Results

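The nuclear receptor genes were followed through 3 ORFtag screens in mouse embryonic stem cells. The group was defined by gene symbol and comprised 45 of the 20409 genes in the deposited tables. Its members were chosen with earlier results of these data known, and 4 nuclear receptor genes lay outside it. In ORFtag, cells are transduced with a retroviral cassette that carries its own promoter, a neomycin resistance gene and a tag ending in a splice donor. Wherever it integrates, the tag can be spliced to an exon downstream. If the reading frame matches, the endogenous protein is then made as a fusion to the tag. Cassettes of 3 reading frames were mixed, and the insertion counts do not tell which one integrated. All cells were diploid derivatives of a wild-type embryonic stem cell line, and each reporter line was a single clone. In the activator screen, cells with the 7xTetO-pMYLPF-Puro-IRES-GFP reporter at a stable locus on Chr15 received a TetR tag, which binds TetO sites, and sorting took those whose GFP had gone up. In the repressor screen, the reporter was pEF1-BFP-7xTetO-pPGK-Puro-IRES-GFP, placed at that locus, the tag was TetR again, and sorting took cells whose GFP had gone down. For post-transcriptional gene regulation (PTGR), cells with a randomly integrated Puro-IRES-GFP-10xBoxB reporter received a λN tag, which binds the boxB sites of the reporter mRNA, and cells with low GFP that depended on those sites were sorted. The PTGR line also carried CreERT2. Its cells were sorted repeatedly with expansion in between, and hydroxytamoxifen was given before the last sort to remove the boxB sites. Each screen had 2 sorted and 2 unsorted libraries, which gave 12 libraries in 6 groups. The readout was the number of unique insertion positions assigned to a gene in genomic DNA, so neither RNA nor fusion protein was measured, and the identity of the cells could not be checked against marker genes.

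Nuclear receptors are transcription factors, most of which are switched by small lipophilic ligands such as steroids, retinoids, thyroid hormone or oxysterols. A typical member has a variable N terminus, a DNA-binding domain of a pair of zinc fingers, and a C-terminal ligand-binding domain that recruits corepressors or coactivators depending on the ligand. Retinoic acid receptors (RARs) act as heterodimers with retinoid X receptors (RXRs), hold corepressors such as NCoR without ligand, and release them when retinoic acid binds. Several members, among them Nr5a2, Nr0b1 and Esrrb, are known for roles in embryonic stem cells.

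The sequences that the results turned on were the exons to which the tag was assigned at 3 retinoid receptor genes. Rara, retinoic acid receptor alpha, lies on the plus strand at chr11:98927818-98974942, Rarg, retinoic acid receptor gamma, on the minus strand at chr15:102234938-102257517, and Rxra, retinoid X receptor alpha, on the plus strand at chr2:27676440-27762957 (GRCm38, the assembly of mm10, with gene models of GENCODE vM21). Exon numbers are those of the deposited insertion lists. In the lines that follow, the last 20 intron bases and the whole coding exon that carries the first zinc finger are given from the RefSeq copy of GRCm38, read 5′ to 3′ on the strand of the gene. Capitals mark the last bases of the intron and the codons of the zinc-binding cysteines of that finger. They are shown because insertions of the repressor sorted libraries were assigned to these exons more often than those of the unsorted libraries.
Rara exon 3 (chr11:98966327-98966495): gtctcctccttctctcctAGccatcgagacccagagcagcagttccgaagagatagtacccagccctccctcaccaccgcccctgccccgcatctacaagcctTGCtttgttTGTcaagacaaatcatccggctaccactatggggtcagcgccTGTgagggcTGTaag
Rarg exon 4 (chr15:102241836-102242004): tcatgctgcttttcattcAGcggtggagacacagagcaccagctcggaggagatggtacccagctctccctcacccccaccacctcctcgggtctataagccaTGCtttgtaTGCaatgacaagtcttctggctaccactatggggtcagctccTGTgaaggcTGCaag
Rxra exon 3 (chr2:27741033-27741203): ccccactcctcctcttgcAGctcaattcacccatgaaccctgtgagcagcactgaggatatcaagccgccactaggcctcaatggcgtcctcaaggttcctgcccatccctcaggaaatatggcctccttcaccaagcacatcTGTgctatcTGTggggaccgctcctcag
The Rara and Rarg exons were both 149 bases long and were identical at 119 bases (79.9%). The exon of Rarb at the same place, also of 149 bases, was identical to that of Rara at 77.9% and to that of Rarg at 78.5% of bases. The exons held all 4 cysteine codons of the finger in Rara and Rarg, and 2 of them in Rxra, whose exon was 151 bases long. The other main acceptors of these genes, each marked exon 2, are given with 20 intron and 10 exon bases, and capitals again mark the last bases before the annotated exon.
Rara exon 2 (chr11:98947551-98947580): tttctccctgtcttcctcAGttgacagaga
Rarg exon 2 (chr15:102256530-102256559): agcgcctctttcctttccAGcagtttccac
Rxra exon 2a (chr2:27677367-27677396): cgccgggggccgccgcgcTGccgccctgct
Rxra exon 2b (chr2:27737279-27737308): tgccaattcttgtcttgcAGacttctctac
The exon marked 2a of Rxra was annotated in 1 of its 5 protein-coding transcripts, was 74 bases long and was not preceded by the AG that ends most introns. Which acceptor the tag used in the cells was not measured.

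Nuclear receptor genes were tagged about as often as the median gene, but very unevenly among themselves. Depth, counted as insertions within 200 kb of their exon, lay between 14705 and 60980 per sorted library and between 54088 and 233799 per unsorted library. The 6 unsorted libraries together are called the background here. They held 1022126 insertions, of which 2410 were at nuclear receptor genes, or 0.236% (95% Wilson interval 0.227% to 0.245%). Intervals cover counting error only, since copies of 1 cell and of 1 molecule are not independent. The median was 14 background insertions for a nuclear receptor gene and 15 over all genes. Rxra had the most, 253, followed by Nr1d1 (232), Rarg (221), Nr5a2 (198) and Nr2e1 (196), and these 5 genes held 45.6% of the insertions of the group. Nr1d1 encodes a haem-binding repressor of the circadian clock, Nr5a2 an orphan receptor of early embryos, and Nr2e1 the neural stem cell receptor TLX. At the other end, 15 genes had fewer than 10 background insertions. Esr2, oestrogen receptor beta, had none, although 10.5% of all genes had none either. It was tagged 1 time in each activator sorted library and 1 time in PTGR sorted replicate 2, which is too few for a fold.

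**Figure D1:**
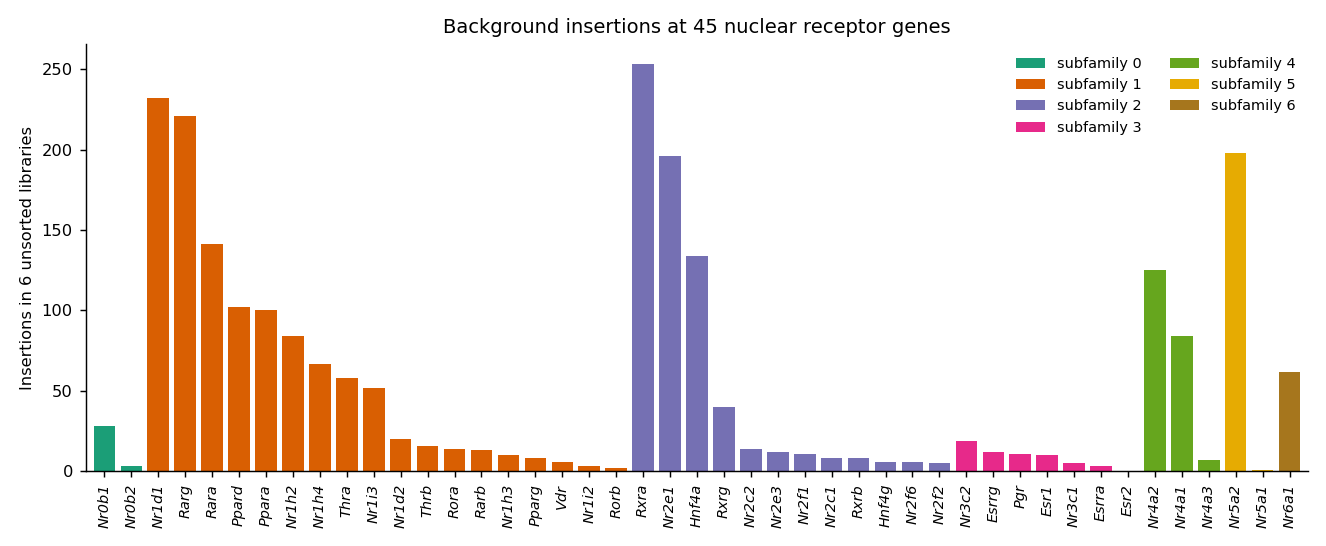
Summed insertions of the 6 unsorted libraries (y axis, count) at each of the 45 nuclear receptor genes (x axis), coloured by subfamily. The bars run from 0 at Esr2 to 253 at Rxra, and 10 genes reach 100 or more.

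The subfamilies differed in the same uneven way. Subfamily 1, which holds the receptors for thyroid hormone, retinoic acid, fatty acids, oxysterols and vitamin D, had 1149 background insertions over 18 genes with a median of 36. Subfamily 2, with the RXR, HNF4 and COUP-TF genes, had 693 over 12 genes with a median of 11.5. The steroid and oestrogen-related receptors of subfamily 3 had 60 over 7 genes, and the best tagged of them, the mineralocorticoid receptor gene Nr3c2, had 19. The number of insertions therefore limited what could be seen at most steroid receptor genes.

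Where the tag entered the genes was also read from the background. Of the 2410 insertions, 1442 (59.8%) lay upstream of the annotated gene start, and the median distance to the assigned exon was 26.5 kb. For 43 of the 45 genes a script found the first zinc finger in the longest complete coding sequence; Nr0b1 and Nr0b2, which lack the DNA-binding domain, had none. Of 2379 background insertions at those genes, 2169 (91.2%, interval 90.0% to 92.2%) were assigned to an exon at or before the finger. An in-frame fusion there would include it. The share was 91.8% (78 of 85) in the repressor sorted, 86.8% (59 of 68) in the activator sorted and 89.7% (245 of 273) in the PTGR sorted libraries, and the interval of each overlapped that of the background.

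As a group, with both sorted libraries of a screen summed, nuclear receptor genes were neither enriched nor depleted beyond counting error in any screen. They took 0.212% of insertions in the activator sorted libraries (interval 0.167% to 0.268%), 0.227% in the repressor sorted libraries (0.184% to 0.280%) and 0.238% in the PTGR sorted libraries (0.212% to 0.267%), against 0.236% in the background. The repressor sorted libraries were far apart, however, at 0.283% (0.221% to 0.362%) in replicate 1 and 0.145% (0.0956% to 0.219%) in replicate 2. The interval of replicate 2 lay below that of the background. Within the repressor sorted libraries the composition had shifted. Rara, Rarg and Rxra held 45 of the 63 insertions of the group in replicate 1 and 15 of the 22 in replicate 2. In the unsorted libraries of this screen they held 114 of 424 and 76 of 370. These genes were set apart because they were high in the same sorted libraries, so part of the shift follows from that choice. The remaining 42 genes took 0.0808% and 0.0460% of these libraries, against 0.164% to 0.187% of each unsorted library. A lower share was general in this screen. Hits took 54.8% of all repressor sorted insertions, and over the 5254 genes with at least 50 background insertions the median share fell to 0.390 of that in the background, beside 0.302 for the 16 nuclear receptor genes with as many. A log2 odds ratio of 0 in the repressor screen therefore lay above the median gene.

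The repressor screen asked which tagged proteins lower GFP when brought to the reporter DNA. Insertions at Rxra, Rara and Rarg made up more of the sorted than of the unsorted libraries, and of these only Rxra passed the thresholds of the pooled test. For each gene, summed sorted insertions were set against the background in Fisher's exact test (one-sided), and p was adjusted over the genes with 3 or more sorted insertions. A gene was called a hit if its log2 odds ratio reached 1 at an adjusted p under 0.001. Of 2346 genes tested, 192 were hits (8.18%). Among the 45 nuclear receptor genes, 6 had 3 or more sorted insertions, 12 had 1 or 2, and 27 had none, which allows up to 0.801 per 10000 insertions for each.

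Rxra, the common dimer partner of many receptors, had 21 insertions in repressor sorted replicate 1 and 5 in replicate 2, or 9.43 and 3.29 per 10000. In the unsorted libraries of this screen it had 50 and 34 (2.87 and 1.92 per 10000), and over all 6 unsorted libraries it stayed between 1.85 and 2.87 per 10000. Both sorted values lay above every unsorted value, replicate 2 by little. The mean was 6.36 ± 4.34 per 10000 (SD, n = 2) in the sorted and 2.40 ± 0.67 in the matched unsorted libraries. The log2 odds ratio against the background was 1.49 ± 0.30 (SE of counting), adjusted p = 0.000114 by Fisher's exact test on the pooled insertions. The effect was small for a hit, since 190 of the 192 hits had a larger log2 odds ratio and their median was 4.30. Without replicate 1 the log2 odds ratio fell to 0.41 and no nuclear receptor gene was a hit, and with insertions within 50 kb alone it rose to 2.68.

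Rara had 13 insertions in sorted replicate 1 and 3 in replicate 2, or 5.84 and 1.97 per 10000. Its unsorted libraries of the 3 screens ran from 1.19 to 1.72 per 10000, below both sorted values. The log2 odds ratio was 1.63 ± 0.38, adjusted p = 0.00185 by Fisher's exact test, just short of the threshold. Rarg had 11 and 7 sorted insertions, or 4.94 and 4.60 per 10000, and was the gene whose sorted replicates lay closest together. Its unsorted libraries ran from 1.19 to 3.08 per 10000, again below both sorted values. The log2 odds ratio was 1.15 ± 0.35, adjusted p = 0.0233 by Fisher's exact test.

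**Figure D2:**
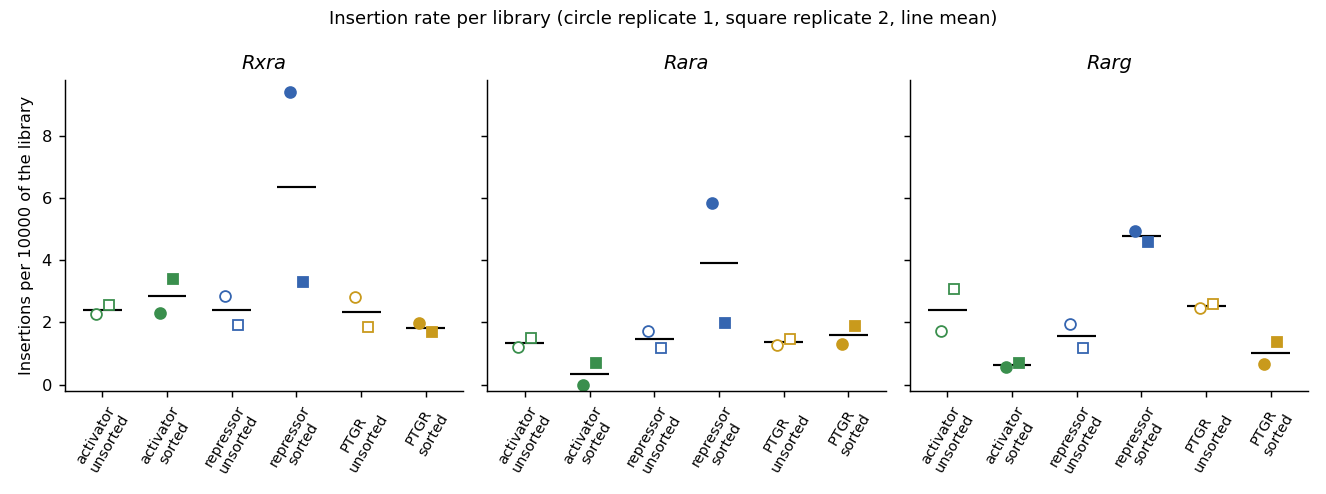
Insertions per 10000 insertions of the library (y axis) at Rxra, Rara and Rarg in the 12 libraries, by screen and sorting (x axis); circles are replicate 1, squares replicate 2, filled symbols sorted and lines the mean of 2. The repressor sorted symbols lie above all unsorted symbols in each panel, with Rxra at 9.43 and 3.29, Rara at 5.84 and 1.97 and Rarg at 4.94 and 4.60.

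The same 3 genes were called when the spread between replicates was used. The quasi-likelihood test of edgeR compared the 2 sorted with the 2 unsorted libraries of the repressor screen on 2779 genes, of which 200 (7.2%) were higher and 32 (1.15%) lower in the sorted libraries at an adjusted p below 0.05. Of 7 nuclear receptor genes fitted, 3 were higher and 0 lower. The log2 fold change was 2.34 for Rxra (edgeR adjusted p = 3.03e-07), 2.36 for Rara (edgeR adjusted p = 0.000126) and 2.42 for Rarg (edgeR adjusted p = 2.27e-05). These fold changes are relative to TMM-normalized library sizes and to the unsorted libraries of this screen alone, so they are not on the scale of the odds ratios. The calls depended on the fit. DESeq2 called none of the 3 (log2 fold changes of 0.97 to 1.07, lowest adjusted p = 0.0959 for Rarg), edgeR without a filter on low counts called none, and none was called without sorted replicate 1 or without sorted replicate 2.

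The remaining nuclear receptor genes gave little in this screen. Nr2f1, which encodes the orphan receptor COUP-TF1 of the developing nervous system, had 1 and 2 insertions after sorting and 11 in the background (log2 odds ratio 2.90 ± 0.94, adjusted p = 0.102 by Fisher's exact test). These insertions lay at only 2 positions, 1 bp apart, and 1 of them was seen in both replicates. Hnf4a (4 sorted insertions) and Ppard (3) had log2 odds ratios of -0.30 and -0.32. Nr1d1, Nr5a2 and Nr2e1, each with close to 200 or more background insertions, had 1, 1 and 2 insertions in replicate 1 and 0 in replicate 2. Rarb and the other RXR genes, Rxrb and Rxrg, had 0, 0 and 1 sorted insertions against 13, 8 and 40 in the background. At the background share only 0.48, 0.29 and 1.47 would be expected, too few to compare them with Rara, Rarg or Rxra.

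The sorted insertions at the RAR genes were placed differently within the genes than the unsorted ones. At Rara, 96 of 141 background insertions and 0 of 16 repressor sorted insertions were assigned to exon 2. No base of the coding sequence lies before that exon. Exon 3, the zinc finger exon shown above, took 38 of 141 background insertions (27.0%, interval 20.3% to 34.8%) and 13 of 16 repressor sorted insertions (81.3%, interval 57.0% to 93.4%). The unsorted libraries ran from 9.68% to 40% there, and the highest was repressor unsorted replicate 1 (12 of 30), with 28.6% (6 of 21) in its replicate 2. Of the sorted insertions it took 11 of 13 in replicate 1 and 2 of 3 in replicate 2, and the other 3 were assigned to exons 4 and 5, past the first finger. At Rarg, exon 4 took 110 of 221 background insertions (49.8%, interval 43.2% to 56.3%) and 18 of 18 repressor sorted insertions (interval from 82.4%), 11 of 11 and 7 of 7 in the replicates. The unsorted libraries ran from 41.4% to 64.7%, again highest in repressor unsorted replicate 1 (22 of 34), with 47.6% (10 of 21) in its replicate 2. Exons 2 and 3 of Rarg took 79 of the background insertions and 0 of the sorted ones. An in-frame fusion at Rara exon 3 would hold 87.2% and at Rarg exon 4 86.6% of the coding sequence, without the receptor's N-terminal part. The pattern was noticed in the data and no test was made of it.

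The assigned exon follows from the position of an insertion, so the positions describe the same pattern and add no separate evidence. The 16 Rara insertions of the repressor sorted libraries stretched over 16.9 kb, from 14.6 kb upstream of the zinc finger exon to 2.31 kb past its start, whereas background insertions had a median of 27.5 kb upstream. The 18 Rarg insertions lay within 9.72 kb upstream of its exon. None reached the gene start at 15.5 kb, as their assignment to exon 4 required. The insertions came from 15 distinct positions at Rara and 17 at Rarg, with 1 position of each seen in both replicates. Over all genes the repressor sorted replicates shared 4186 positions, 27.5% of those of replicate 2, more than any sorted library of the activator screen shared with its partner (2.61%). How much of this was cells or molecules in common was not tested. With all positions seen in over 1 library left out, Rxra kept its call.

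**Figure D3:**
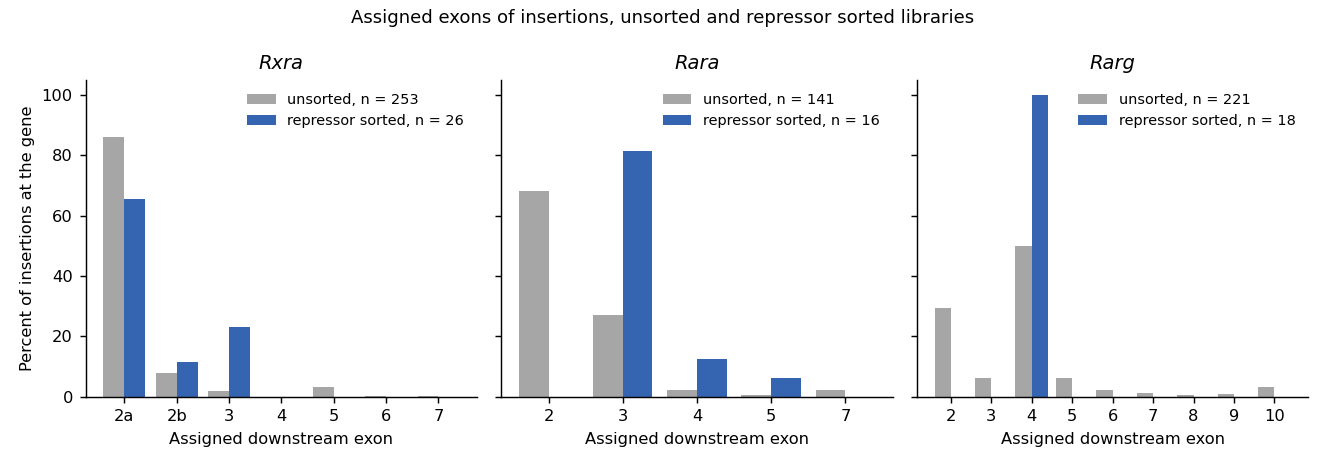
Percent of insertions at Rxra, Rara and Rarg (y axis) by the downstream exon they were assigned to (x axis), for the unsorted libraries together (grey) and both repressor sorted libraries together (blue). Blue bars stand highest at exon 3 of Rara (81.3%) and exon 4 of Rarg (100%), where the grey bars reach 27.0% and 49.8%.

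**Figure D4:**
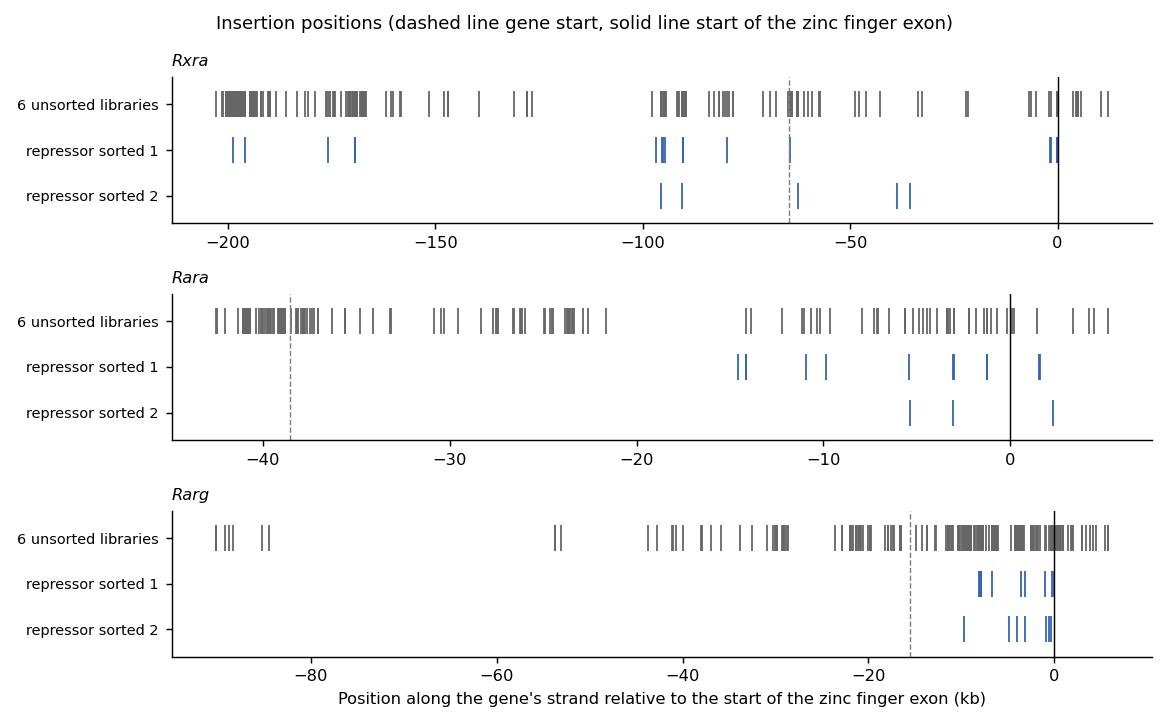
Each tick is an insertion, placed by its distance in kb along the strand of the gene from the start of the zinc finger exon (solid line, negative is upstream); the dashed line is the annotated gene start. Repressor sorted ticks of Rara and Rarg lie inside the genes close to the exon, those of Rxra both there and up to 199 kb upstream.

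Rxra differed from the RAR genes in this. Of its 26 repressor sorted insertions, 16 lay upstream of the gene and 17 were assigned to exon 2a, compared with 218 of 253 background insertions. Exon 3 took 6 of 26 (23.1%, interval 11.0% to 42.1%) and 5 of 253 in the background (1.98%, interval 0.847% to 4.54%). All 6 came from replicate 1, within 1.82 kb of the exon. In replicate 2, 3 of the 5 insertions were assigned to exon 2b. All 26 were assigned to an exon at or before the zinc finger, so an in-frame fusion from that exon would keep it. For the 17 at exon 2a, the acceptor used in the cells was not measured.

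The activator screen asked the opposite question. No nuclear receptor gene was a hit, with 132 hits among 2842 genes tested (4.64%). Of the 45 genes, 8 had 3 or more insertions in the 32102 of both sorted libraries, 16 had 1 or 2, and 21 had 0, which allows up to 0.935 per 10000 for each. The 8 tested genes had log2 odds ratios from -0.28 (Nr1d1) to 0.70 (Nr2e1, 7 and 3 sorted insertions), and 0 of them had an unadjusted p below 0.05 in Fisher's exact test, compared with 9.68% of all tested genes. edgeR called 0 of 8 nuclear receptor genes higher and 0 lower, with 4% and 0.0667% of 2998 genes called, and 0 of the 8 had an unadjusted p below 0.05 in edgeR, compared with 11% of genes. The RAR genes were sparse in these cells. Rarg had 1 insertion in each sorted library (0.575 and 0.680 per 10000) against 30 and 64 in the matched unsorted libraries (1.71 and 3.08 per 10000). Rara had 0 and 1 against 21 and 31. DESeq2 called Rarg lower (log2 fold change -2.84, adjusted p = 0.0485), and edgeR did not (log2 fold change -1.60, adjusted p = 0.603). Rxra had 4 and 5 sorted insertions against 40 and 53, and the rate of sorted replicate 1 lay between those of the unsorted libraries, 2.28 and 2.55 per 10000. Sorted replicate 2, at 3.40 per 10000, lay above all 6 unsorted values and above repressor sorted replicate 2 at 3.29.

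**Figure D5:**
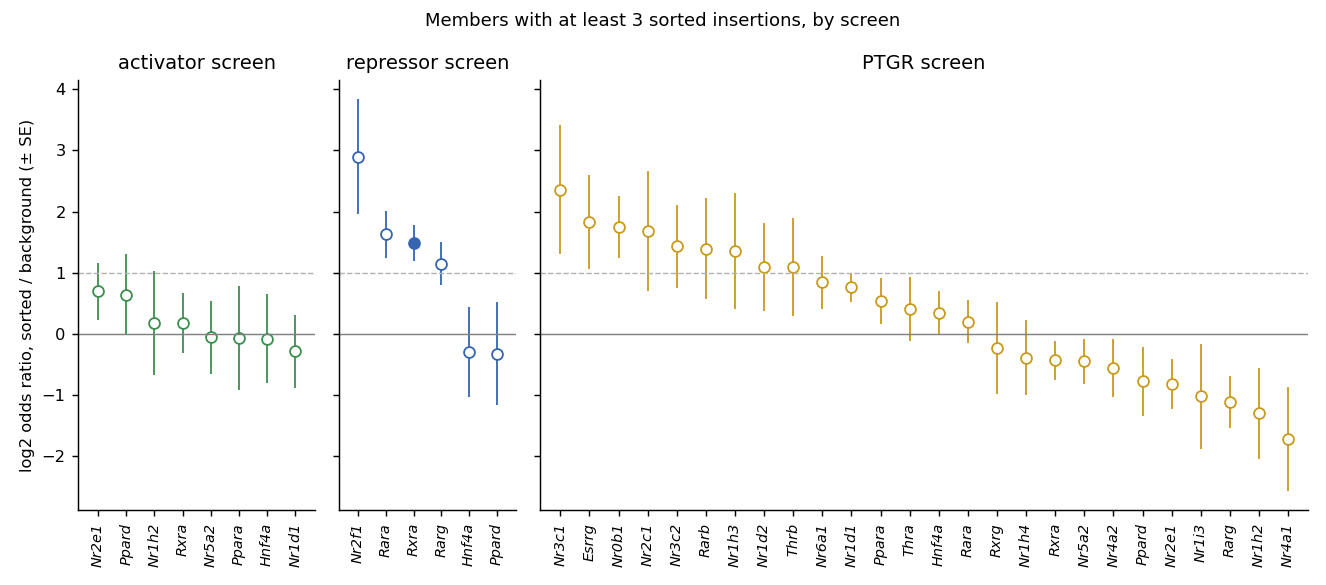
Log2 odds ratio of sorted insertions against the background (y axis, bars are SE of counting error) for the nuclear receptor genes with at least 3 sorted insertions in each screen (x axis); the filled point passed the thresholds, the dashed line is the log2 odds ratio of 1 required. Rxra in the repressor screen is the only filled point, and the bars are widest for genes with few insertions, such as Nr3c1 and Nr2f1.

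In the PTGR screen, where the tag bound the reporter mRNA, no nuclear receptor gene was a hit either. Of 9303 genes tested, 62 were hits (0.666%), and 26 nuclear receptor genes were among those tested. These 26 had log2 odds ratios from -1.71 (Nr4a1) to 2.36 (Nr3c1). Of the 26, 6 had an unadjusted p below 0.05 in Fisher's exact test, a larger share than the 10.6% of all tested genes. That count depended on the setting. It was 2 of 26 against the unsorted libraries of this screen alone and 2 of 19 with insertions within 50 kb. Without PTGR unsorted replicate 2 it was 7 of 26. The shares of all genes at these settings are not given here. The lowest adjusted p was that of Nr1d1, with 20 and 26 sorted insertions (3.28 and 4.44 per 10000), 43 and 13 in the matched unsorted libraries (1.84 and 2.40 per 10000) and a log2 odds ratio of 0.76 ± 0.23 (adjusted p = 0.0803, Fisher's exact test). Both sorted values lay above all 6 unsorted values, of which the highest was 2.85. Nr0b1, which encodes DAX1, a receptor without a DNA-binding domain, had 6 and 5 insertions after sorting and 28 in the background (log2 odds ratio 1.75 ± 0.51, adjusted p = 0.0967, Fisher's exact test). All of these were assigned to exon 2, from which an in-frame fusion would hold only 17.1% of the coding sequence. Nr0b1 took 11 of the 284 PTGR sorted insertions of the group, and 0 in the activator and repressor sorted libraries. At its background share only 0.88 and 1.03 would be expected in those libraries, so the zeros do not set the PTGR screen apart.

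The other genes whose log2 odds ratio reached 1 in the PTGR screen rested on 3 to 6 sorted insertions each. They were the glucocorticoid receptor gene Nr3c1 (2.36), the orphan receptor genes Esrrg (1.83) and Nr2c1 (1.68), Nr3c2 (1.43), Rarb (1.40), the oxysterol receptor gene Nr1h3 (1.36), the clock gene Nr1d2 (1.10) and the thyroid hormone receptor gene Thrb (1.10). Their adjusted p by Fisher's exact test ran from 0.381 for Esrrg to 0.641 for Thrb and Nr1h3. All 6 insertions at Nr3c2 came from replicate 1. In edgeR, with 2.24% of 1696 genes called higher and 0.236% lower, 0 of 6 nuclear receptor genes fitted were called. Of these 6, 2 had an unadjusted p below 0.05 in edgeR, a larger share than the 6.07% of all genes but of few genes. Those were Nr1d1 (log2 fold change 1.04, adjusted p = 0.238) and Rarg (log2 fold change -1.21, adjusted p = 0.385), the latter with 4 and 8 sorted insertions (0.656 and 1.37 per 10000) against 58 and 14 in the matched unsorted libraries (2.48 and 2.59 per 10000).

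The repressor screen differed from the others at the retinoid receptor genes when the difference itself was tested. An interaction test in edgeR over all 12 libraries and 2569 genes, 9 of them nuclear receptor genes, called 8.21% of genes for repressor against activator, 6.46% for repressor against PTGR and 3.93% for activator against PTGR. The sorted against unsorted change of Rarg was larger in the repressor than in the activator screen by 4.04 on the log2 scale (edgeR adjusted p = 0.000903) and than in the PTGR screen by 3.67 (edgeR adjusted p = 2.58e-05). That of Rara was larger than in the activator screen by 4.11 (edgeR adjusted p = 0.0142) and, short of the threshold, than in the PTGR screen by 2.04 (edgeR adjusted p = 0.0712). That of Rxra was larger than in the PTGR screen by 2.75 (edgeR adjusted p = 0.000216), and the difference of 1.79 from the activator screen missed the threshold (edgeR adjusted p = 0.0864). The pairs share the repressor libraries. The PTGR cells were also sorted repeatedly and given hydroxytamoxifen, and the part of this in the differences was not tested. The calls of Rarg remained with any one of the 12 libraries left out, whereas that of Rara against the activator screen was lost without activator sorted replicate 1 or repressor sorted replicate 1, and that of Rxra against the PTGR screen was lost without PTGR unsorted replicate 1 or repressor sorted replicate 1. Without repressor sorted replicate 2, both differences that had missed the threshold passed it, for Rara against PTGR (edgeR adjusted p = 0.0151) and Rxra against activator (edgeR adjusted p = 0.00948). No nuclear receptor gene was called between the activator and PTGR screens.

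Insertions counted with the strand reversed, where no fusion to the gene can form, served as the control. In the repressor screen 5.61% of 2229 genes were hits on the reversed strand, and none of the 4 nuclear receptor genes tested was. Rara had 0 reversed insertions in the sorted libraries, Rxra 1 and Rarg 9, against 115, 222 and 215 in the background. The reversed log2 odds ratio was -2.77 ± 1.45 for Rxra and 0.45 ± 0.49 for Rarg (adjusted p = 0.931 for Rarg, Fisher's exact test). The reversed share of Rarg was thus not below that of the background. In the activator screen 3.14% of 2706 genes and 0 of 7 nuclear receptor genes were reversed hits. In the PTGR screen 0.5% of 9204 genes were, and Nr1d1 was among them, with 71 sorted reversed insertions against 295 (log2 odds ratio 1.05 ± 0.19, adjusted p = 4.59e-05, Fisher's exact test). Nr1d1 lies on the minus strand at chr11:98767932-98775333, and its end overlaps that of Thra, a thyroid hormone receptor gene on the plus strand. Each of the 71 was at the same time a sense insertion of a plus-strand gene nearby, 33 of Msl1, 19 of Rara and 15 of Casc3. In the repressor screen 16 of the 19 reversed Nr1d1 insertions were the sense insertions of Rara described above. The sense insertions of Nr1d1 were remote too, as 34 of 46 in the PTGR sorted and 152 of 232 in the background lay more than 50 kb from its exon 2.

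Among the partners of nuclear receptors, 6 coactivator genes were hits in the activator and 3 corepressor genes in the repressor screen. The partner lists were drawn up with earlier results of these data known. The paper itself names Ep300, Kmt2c, Kmt2d and Pprc1 among its activator hits. The shares of all genes given beside the lists are therefore a description and no test of them. Of 20 coactivator genes listed, 13 were tested in the activator screen and 6 were hits, where 4.64% of all tested genes were. These were the p160 coactivator gene Ncoa1, the acetyltransferase genes Crebbp and Ep300, the PGC1-related Pprc1 and the methyltransferase genes Kmt2c and Kmt2d, with log2 odds ratios from 1.29 for Ncoa1 to 6.11 for Pprc1, which was also a reversed-strand hit. The repressor screen, with 8.18% of all tested genes as hits, had 1 among 11 tested coactivators, Trim24 (94 and 68 sorted insertions, log2 odds ratio 3.37 ± 0.13), which binds ligand-bound receptors. The PTGR screen, with 0.666%, had 1 of 15, Ep300 (2.39 ± 0.14). Of 20 corepressor genes, 11 were tested in the repressor screen and 3 were hits, beside the same 8.18% of all genes. Ncor1, which encodes NCoR, had 256 and 136 insertions after sorting and 998 before (log2 odds ratio 3.44 ± 0.09). Kdm1a, a histone demethylase gene, had 20 and 9 (4.24 ± 0.35), and its partner Rcor2 had 347 and 267 (5.86 ± 0.10). No corepressor was a hit among 6 tested in the activator and 12 tested in the PTGR screen. The 19 genes of ligand supply with a row in the tables, which make, carry or degrade retinoids, steroids and thyroid hormone, gave 0 hits in the 3 screens, with 0, 1 and 8 tested.

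Of the 4 nuclear receptor genes outside the group of 45, Esrrb was a repressor hit. Esrrb, an oestrogen-related receptor of the pluripotency network, had 81 and 50 sorted insertions, compared with 416 in all unsorted libraries, which gave a log2 odds ratio of 3.11 ± 0.14. Of its 131 repressor sorted insertions, 121 were assigned to exon 4, past the first zinc finger, beside 155 of the 416 in the background. In the PTGR screen edgeR called Esrrb lower. Its 2 close relatives within the group, Esrra and Esrrg, had 0 sorted insertions in the repressor screen against 3 and 12 in the background, so no value could be given for them at this depth.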

How the data were processed

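Insertion lists and gene tables of 12 libraries were used. The authors trimmed reads with Trim Galore 0.6.0, used Bowtie2 for alignment to mm10 and SAMtools 1.9 for filtering on mapping quality and collapsing duplicates, and gave every insertion the nearest exon downstream, first exons excepted, among protein-coding GENCODE transcripts. The deposited lists give positions and distances in bp, not normalized and without reads per insertion, from which insertions were counted here. Each count used is the number of unique positions at most 200 kb from the exon. The gene tables, in which the authors deposited raw counts per gene summed over libraries beside their own log2 odds ratios and adjusted p-values, served for gene names only. The authors' own calls of single nuclear receptor genes are therefore not given here. With the same thresholds the paper reports more hits in each screen than were found here, and the reason was not tested. The repressor unsorted lists held 100% of positions more than once and PTGR sorted replicate 2 held 12.7%, so each position was counted once.

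Fisher's exact tests (scipy 1.17.1) and edgeR 4.0.16 and DESeq2 1.42.0 fits in R 4.3.3 ran over all genes, and were tested on simulated data. Insertions were placed on GENCODE vM21, whose exon starts matched all of them at these genes. The members, the partner lists and the rule for named genes were chosen with earlier results of these data known. Values were given for members that were hits, were called by edgeR, or reached a log2 odds ratio of 1 with 3 or more sorted insertions, for the 5 most tagged members and for those with no background insertion; any other gene was named after its values were seen. The study describes the replicates of each screen as biological and the transductions as independent. The edgeR results of the partner lists are not reported here. Alternatives covered the background, distance, repeated and shared positions, minimum counts, thresholds and left-out libraries.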

Additional observations from a re-analysis of the deposited data

Results flagged for a closer look

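The change from unsorted to sorted libraries differed between screens at 3 nuclear receptor genes by the edgeR interaction test. Rara differed between the repressor and the activator screen by 4.11 on the log2 scale, with 13 and 3 insertions in the repressor sorted and 0 and 1 in the activator sorted libraries. Rarg differed between the same screens by 4.04, with 11 and 7 against 1 and 1 insertions, and between the repressor and PTGR screens by 3.67, with 4 and 8 insertions in the PTGR sorted libraries. Rxra differed between the repressor and PTGR screens by 2.75, with 21 and 5 against 12 and 10 insertions. The share of these libraries taken by hits differed as well, at 54.8% in the repressor, 34.2% in the activator and 5.07% in the PTGR sorted libraries. The sorting scheme of the PTGR screen was also its own. The part of either in the differences was not tested.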

How the results depend on the processing

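No nuclear receptor gene was an activator or PTGR hit under any alternative run. In the repressor screen the count of 1 hit became 2 with at least 10 sorted insertions, 3 at an adjusted p below 0.05, and 3 with the hits outside the group left out of totals and tests, an alternative chosen after seeing the data. It was 3 by edgeR without a replicate block, 3 with the replicate block and 0 by DESeq2, and ran from 0 to 2 with 1 library left out. Rxra was the 1 hit with the background of the same screen, at 50 kb, with every listed line counted, with positions within 10 bp merged, with positions in over 1 library left out and with at least 1 sorted insertion. Leaving the outside hits out raised the log2 odds ratio of Rara from 1.63 to 2.73.

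The count of 3 genes changed by edgeR in the repressor screen was 0 by DESeq2 and 0 without a filter on low counts, and ran from 0 to 3 with 1 library left out. The activator count of 0 was 1 by DESeq2, which called 587 genes lower. The counts of 2 genes that differed from the activator and 2 from the PTGR screen both ran from 1 to 3 with 1 library left out, with Rara, Rarg and Rxra called in both without repressor sorted replicate 2. Over all genes, the 166 that differed between repressor and PTGR screens were 95 without PTGR unsorted replicate 1. Nr1d2 in the PTGR screen reversed, to -0.11 by DESeq2, and the cause was not tested. The replicate numbers are not stated to pair the libraries. The deviations of same-numbered libraries correlated at 0.07, -0.02 and 0.34 in the activator, repressor and PTGR screens across genes. PTGR sorted replicate 1 shared 19.5% of its positions with unsorted replicate 1 and 0.397% with unsorted replicate 2. The replicate block changed no call of a member in edgeR or in the tests between screens. Over all genes, PTGR hits numbered 62 against the pooled background, 40 against the unsorted libraries of that screen and 121 at an adjusted p below 0.05. With outside hits left out, 25 repressor, 0 activator and 1 PTGR genes were hits. The edgeR calls of 200 higher genes in the repressor screen were 74 without the filter and 61 to 181 with 1 library left out, the 120 in the activator screen were 64 to 108, and the 38 in the PTGR screen were 19 by DESeq2 and 24 to 33 with 1 library left out. The 32 lower genes of the repressor screen were 641 by DESeq2 and 0 without the filter. Depth was a limit, since 27 of the 45 genes had no insertion in the repressor sorted libraries.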
